A study of Homo sapiens with 6 samples.

Results

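The troponins and tropomyosins are the regulatory proteins of the muscle thin filament. The 10 genes TNNC1, TNNC2, TNNI1, TNNI2, TNNT1, TNNT2, TNNT3, TPM1, TPM2 and TPM3 were chosen by name, and each was read from the array row that carries its symbol alone. Of these 10 genes, 8 had such a row, among 18417 genes with a row of their own. TNNT2, the cardiac and embryonic troponin T, and TPM3, the slow-fibre alpha-tropomyosin gene that non-muscle cells also use, had none and are not analysed here. Each of the 8 measured genes had a single row, so no choice between rows was needed.

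In a resting fibre, tropomyosin lies along the actin filament and covers the sites that myosin binds. Calcium binds troponin C, troponin I then releases actin, and troponin T, which ties the complex to tropomyosin, passes the shift on. Slow and fast skeletal fibres use different troponin genes: TNNC1, TNNI1 and TNNT1 in slow fibres and TNNC2, TNNI2 and TNNT3 in fast ones, with TNNC1 shared by the heart. TPM1 is the alpha-tropomyosin gene of fast fibres and heart, and TPM2 makes the beta-tropomyosin of both fibre types. Embryonic and cultured muscle cells commonly express slow and fast forms side by side.

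All RNA came from RD18, an established human line of embryonal rhabdomyosarcoma, a tumour with features of immature skeletal muscle. The line named NpBI-22 was given doxycycline at 1 µg/ml for 6 days (induced miR-22 cells, 2 arrays) or nothing (non-induced miR-22 cells, 2 arrays), and the series describes the 2 arrays of each as biological replicates. The line named NpBI-206AS was profiled as an additional control, with 1 array after the same doxycycline treatment (induced NpBI-206AS cells) and 1 without it (non-induced NpBI-206AS cells). The labels do not say what the NpBI-206AS construct makes, nor whether either line is 1 clone or a pool. Differences between the lines therefore hold the construct and the line together.

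The product of the miR-22 construct is a microRNA, which lowers the mRNAs that pair with its seed, bases 2 to 8. The sequence of the 3p arm is shown because it identifies what doxycycline was meant to switch on; it is RefSeq's, on GRCh38.p14 at chr17:1713914-1713935, minus strand, with the seed in capitals.
hsa-miR-22-3p: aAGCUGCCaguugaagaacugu
The mature microRNA was not measured here. MIR22HG, the host gene of miR-22, read 10.02 and 10.01 on the log2 scale in induced miR-22 cells, 6.27 and 6.72 in non-induced miR-22 cells, 6.32 in induced NpBI-206AS cells and 6.41 in non-induced NpBI-206AS cells. Only the 2 arrays labelled as induced miR-22 cells were thus high.

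Values are RMA log2 expression, in which a difference of 1 is a factor of 2. The lower quartile of all rows lay between 3.92 and 4.01 on the 6 arrays and the median between 5.66 and 5.75. All 8 genes had group means above the lower quartile in all 4 groups. The skeletal muscle identity on the label was carried by MYOD1, a master regulator of the muscle lineage, at 8.87 and 9.02 in induced and 9.22 and 9.74 in non-induced miR-22 cells. MYF5, another such regulator, lay at the level of the lower quartile on all 6 arrays, at 3.96 and 3.92 in induced and 3.89 and 3.91 in non-induced miR-22 cells. Array codes in the labels have 3 prefixes. Both induced miR-22 arrays have R715, non-induced miR-22 replicate 1 has R509, and non-induced miR-22 replicate 2 and both NpBI-206AS arrays have R587. Its meaning is not given, and if it marks a batch, R715 and induced miR-22 cells cannot be told apart.

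Induction of miR-22 was accompanied by lower TNNC1 and TPM2, and 5 of the other 6 genes also had lower values without passing the test. TNNC1 fell 5.09-fold and TPM2 fell 2.01-fold in induced miR-22 cells relative to non-induced miR-22 cells, while TNNI1 and TNNC2 differed about as much as TPM2 but just missed the threshold. The troponin T genes TNNT1 and TNNT3 differed least among the troponins, and TPM1 was the one gene with a higher mean in induced cells. These 2 calls of 8 genes stand against 3.6 percent of all 33297 rows called in either direction and 2.01 percent called lower (limma adjusted p under 0.05). Over all rows 531 rose and 669 fell, a split that became 718 and 574 with arrays centred on their medians. The median log2 difference of the 8 genes was -0.70, against 0.007 over all 18417 genes. At an unadjusted p under 0.05 there were 5 of the 8 genes, all lower, against 21.6 percent of rows. When a single miR-22 array was dropped from the fit, whichever it was, limma called none of the 8 genes and no row at all (3526 to 8113 rows had an unadjusted p under 0.05). TNNC1 then differed by -2.59 to -2.10 and TPM2 by -1.02 to -0.99, with adjusted p from 0.11 to 0.40.

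**Figure D1:**
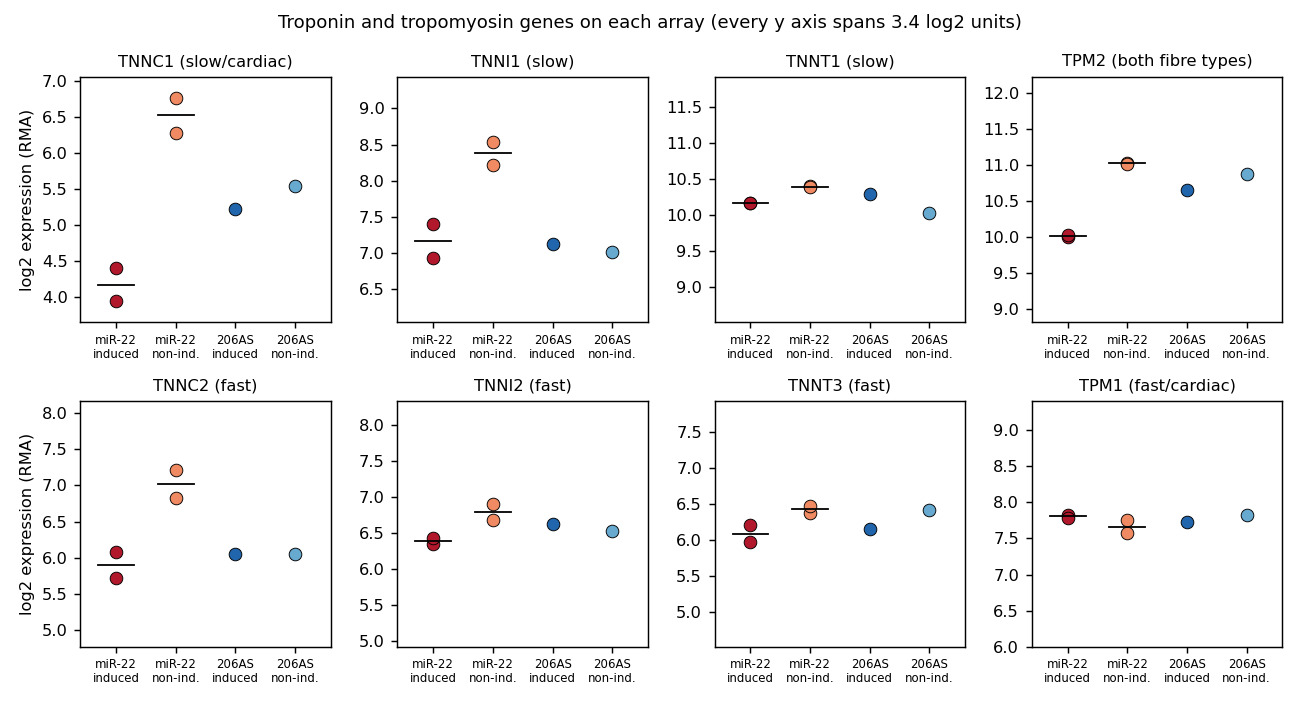
Log2 expression (RMA, y axis) of the 8 measured troponin and tropomyosin genes on each of the 6 arrays, by group (x axis, 1 point per array, horizontal line at the mean of the 2 miR-22 replicates). TNNC1 and TPM2 are lowest in induced miR-22 cells, with the NpBI-206AS arrays between the miR-22 groups, while TNNI1 and TNNC2 are high only in non-induced miR-22 cells.

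Troponin C is the calcium sensor of the complex. TNNC1, the slow and cardiac form, read 4.40 and 3.94 in induced miR-22 cells, compared with 6.28 and 6.76 in non-induced miR-22 cells. The groups did not overlap, and the induced value of 3.94 lay close to that array's lower quartile of 3.92. TNNC1 averaged 4.17 ± 0.32 in induced and 6.52 ± 0.34 in non-induced miR-22 cells (SD, n = 2 each), a log2 difference of -2.35 (SE 0.24, limma adjusted p = 0.02). TNNC2, the fast form, read 6.08 and 5.72 in induced miR-22 cells, compared with 6.82 and 7.21 in non-induced miR-22 cells. Both induced arrays lay below both non-induced ones, by a mean of 1.11 that exceeded the spread within either group. TNNC2 averaged 5.90 ± 0.25 and 7.02 ± 0.28 (SD, n = 2 each), and its log2 difference of -1.11 (SE 0.21) had a limma adjusted p of 0.056.

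Troponin I is the inhibitory subunit that holds the filament off in the absence of calcium. TNNI1, the slow form, read 7.40 and 6.93 in induced miR-22 cells, compared with 8.22 and 8.54 in non-induced miR-22 cells. Both induced arrays lay below both non-induced ones. The means were 7.16 ± 0.33 and 8.38 ± 0.22 (SD, n = 2 each), and the log2 difference of -1.22 (SE 0.22) had a limma adjusted p of 0.051. TNNI2, the fast form, read 6.35 and 6.43 in induced miR-22 cells, compared with 6.90 and 6.68 in non-induced miR-22 cells. The order was the same as for TNNI1, at a smaller size of -0.40 (SE 0.16, limma adjusted p = 0.23).

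Troponin T anchors the complex on tropomyosin. TNNT1, the slow form, read 10.16 on both induced miR-22 arrays, against 10.40 and 10.38 in non-induced miR-22 cells. The replicates of each group lay within 0.03 of each other. Its log2 difference of -0.23 (SE 0.14, 95% interval -0.59 to 0.13, limma adjusted p = 0.44) was small all the same. The standard error is larger than these replicates alone would give, because limma moderates each row's variance towards that of the other rows. TNNT3, the fast form, read 6.21 and 5.97 in induced miR-22 cells, compared with 6.38 and 6.48 in non-induced miR-22 cells, a difference of -0.34 (95% interval -0.75 to 0.07, limma adjusted p = 0.31).

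The tropomyosins form the coiled coil along actin. TPM2 read 10.00 and 10.02 in induced miR-22 cells, compared with 11.03 and 11.01 in non-induced miR-22 cells. Its replicates were the tightest among the genes with large differences, 0.02 apart in each group. TPM2 averaged 10.01 ± 0.018 and 11.02 ± 0.017 (SD, n = 2 each), a log2 difference of -1.01 (SE 0.14, limma adjusted p = 0.032). TPM1 read 7.83 and 7.78 in induced miR-22 cells, compared with 7.57 and 7.75 in non-induced miR-22 cells. Its difference of 0.14 (95% interval -0.24 to 0.53, limma adjusted p = 0.67) did not pass, and the interval leaves room for a small change either way.

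In all, both induced arrays lay below both non-induced arrays in 7 of the 8 genes and above them in TPM1. Over all rows, 51.1 percent had groups that did not overlap, 26 percent in that lower order and 25 percent in the higher one.

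Promoter windows of 250 bases before to 50 bases after a start were given by RefSeq for 5 of the 10 genes, 3 of them measured. They are shown for the called gene TPM2 and for TPM1 and TNNT1, which did not pass, to set the sequence upstream of the tropomyosin that fell beside its uncalled relatives. Motifs searched on both strands were the E-box CANNTG, which MYOD1 and MYOG bind, M-CAT CATTCC, bound by TEAD factors, and the MEF2 and CArG sites by name. Matches are in capitals, and no 2 matches overlap in these windows. The lines run 5′ to 3′ on the minus, plus and minus strands of GRCh38.p14, at chr9:35690007-35690306, chr15:63048239-63048538 and chr19:55149157-55149456.
TPM2: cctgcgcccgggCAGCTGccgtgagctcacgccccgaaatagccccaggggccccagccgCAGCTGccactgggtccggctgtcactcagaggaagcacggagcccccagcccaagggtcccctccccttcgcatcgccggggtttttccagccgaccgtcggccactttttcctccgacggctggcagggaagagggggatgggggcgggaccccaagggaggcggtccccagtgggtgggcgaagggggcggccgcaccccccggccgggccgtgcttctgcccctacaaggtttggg
TPM1: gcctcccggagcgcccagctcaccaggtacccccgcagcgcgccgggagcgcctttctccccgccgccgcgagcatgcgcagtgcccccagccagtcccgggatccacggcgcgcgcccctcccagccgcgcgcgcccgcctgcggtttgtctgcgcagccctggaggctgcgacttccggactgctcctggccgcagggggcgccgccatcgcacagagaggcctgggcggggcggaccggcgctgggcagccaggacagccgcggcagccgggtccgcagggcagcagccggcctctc
TNNT1: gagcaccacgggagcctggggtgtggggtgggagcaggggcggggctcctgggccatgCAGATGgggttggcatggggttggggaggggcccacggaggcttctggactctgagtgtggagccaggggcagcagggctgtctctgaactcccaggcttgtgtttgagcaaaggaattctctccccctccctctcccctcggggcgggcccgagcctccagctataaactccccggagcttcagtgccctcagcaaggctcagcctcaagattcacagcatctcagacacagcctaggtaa
This TPM2 window holds 2 E-boxes, both CAGCTG. A second, overlapping TPM2 window at chr9:35689876-35690175 holds none of the 4 motifs. The TPM1 window holds none and the TNNT1 window 1 E-box, CAGATG. Among 35116 promoter windows of the same length, 68.7 percent hold an E-box, 14 percent M-CAT, 2.99 percent a MEF2 site and 1.29 percent a CArG box. An E-box in a window is therefore the usual case.

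Both lines were compared under doxycycline by setting induced miR-22 cells against induced NpBI-206AS cells. TNNC1 and TPM2 were again the lowest relative to the other line, whereas TNNI1 and TNNC2 were close to it. No gene of the 8 passed, against 0.39 percent of all rows called (0.204 percent higher and 0.186 percent lower), and 2 of the 8, TNNC1 and TPM2, had an unadjusted p under 0.05, against 15.7 percent of rows. The single NpBI-206AS array was assumed to vary like the miR-22 replicates. TNNC1 read 4.40 and 3.94 in induced miR-22 cells, against 5.22 in induced NpBI-206AS cells, a difference of -1.05 (95% interval -1.79 to -0.30, limma adjusted p = 0.19). TPM2 read 10.00 and 10.02 in induced miR-22 cells, against 10.65 in induced NpBI-206AS cells, a difference of -0.64 (95% interval -1.08 to -0.20, limma adjusted p = 0.18). Both genes lay below the NpBI-206AS array on each miR-22 array.

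TNNI1 read 7.40 and 6.93 in induced miR-22 cells and 7.12 in induced NpBI-206AS cells, so that the NpBI-206AS value fell between the replicates. The difference was 0.04 (95% interval -0.63 to 0.72, limma adjusted p = 0.97), and the interval does not reach the 1.22 seen within the miR-22 line. TNNC2 read 6.08 and 5.72 in induced miR-22 cells and 6.05 in induced NpBI-206AS cells, a difference of -0.15 (95% interval -0.80 to 0.51, limma adjusted p = 0.86). TNNT1, TNNI2, TNNT3 and TPM1 differed by -0.13, -0.23, -0.07 and 0.08, each with an interval that spans 0.

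**Figure D2:**
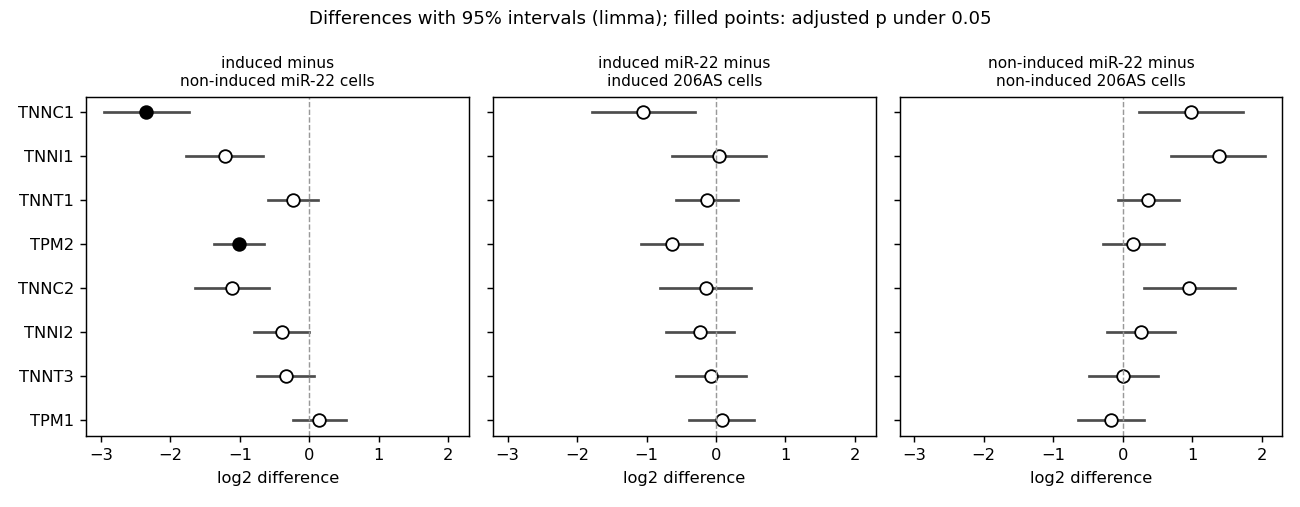
Log2 differences (x axis) with 95% intervals from limma for the 8 genes (y axis) in 3 comparisons, with filled points where the adjusted p was under 0.05. TNNC1 at -2.35 and TPM2 at -1.01 are the filled points. TNNI1 and TNNC2 lie near 0 against induced NpBI-206AS cells. In non-induced miR-22 against non-induced NpBI-206AS cells, TNNI1 at 1.38, TNNC1 at 0.98 and TNNC2 at 0.96 lie above 0 as open points.

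Without doxycycline, TNNI1, TNNC1 and TNNC2 had higher values in the miR-22 line than in NpBI-206AS cells, without passing the test, and TPM2 was close. TNNI1 read 8.22 and 8.54 in non-induced miR-22 cells, against 7.01 in non-induced NpBI-206AS cells, a difference of 1.38 (95% interval 0.70 to 2.05). TNNC1 read 6.28 and 6.76 in non-induced miR-22 cells, against 5.54 in non-induced NpBI-206AS cells, a difference of 0.98 (95% interval 0.23 to 1.73). TNNC2 read 6.82 and 7.21 in non-induced miR-22 cells, against 6.05 in non-induced NpBI-206AS cells, a difference of 0.96 (95% interval 0.31 to 1.62). None of these passed (limma adjusted p = 0.93 each). In this comparison limma called 0 of 33297 rows, with 1145 rows, 3.44 percent, and 3 of the 8 genes at an unadjusted p under 0.05. TPM2 differed by 0.15 (95% interval -0.29 to 0.59), with 11.03 and 11.01 in non-induced miR-22 cells against 10.87 in non-induced NpBI-206AS cells.

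Non-induced miR-22 arrays both lay above both NpBI-206AS arrays in 6 of the 8 genes, against 22.1 percent of all rows, and below them in 0 (16.1 percent of rows). Induced miR-22 arrays both lay below both NpBI-206AS arrays in 3 of the 8 genes, TNNC1, TNNI2 and TPM2, against 27.2 percent of rows, and above them in 0 (33.4 percent of rows). These comparisons share arrays with those above. Within prefix R587, non-induced miR-22 replicate 2 exceeded non-induced NpBI-206AS cells by 1.53 in TNNI1, 1.22 in TNNC1, 1.16 in TNNC2 and 0.14 in TPM2. These are single arrays of 1 prefix, and the part of the prefix in the other differences was not tested.

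Induced and non-induced NpBI-206AS cells were 1 array each, with no replicate check. In them doxycycline and the induced construct cannot be told apart. TNNC1 read 5.22 in induced and 5.54 in non-induced NpBI-206AS cells, a difference of -0.32. TPM2 read 10.65 and 10.87, a difference of -0.22, and TNNT3 read 6.16 and 6.42, a difference of -0.26. TNNT1 had the largest difference upwards, 0.27, with 10.29 in induced and 10.02 in non-induced NpBI-206AS cells. TNNI1, TNNC2, TNNI2 and TPM1 differed by 0.11, -0.01, 0.09 and -0.10. None of the 8 genes was 2-fold apart between the 2 arrays, as were 0.673 percent of all rows. The TNNC1 and TNNT3 differences were of the size of the gaps between miR-22 replicates, which reached 0.48 for TNNC1 and 0.25 for TNNT3. The TPM2 and TNNT1 differences exceeded the gaps of those genes, 0.02 and 0.03. A gap between 2 arrays is a weak guide to spread. Limma's SE for either gene was 0.14 in induced against non-induced miR-22 cells, where each group had 2 arrays.

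Whether doxycycline acted differently in the 2 lines was tested as an interaction. It was -2.03 for TNNC1 (SE 0.42, limma adjusted p = 0.33), -1.33 for TNNI1 (SE 0.38, adjusted p = 0.45), -1.11 for TNNC2 (SE 0.37, adjusted p = 0.50) and -0.79 for TPM2 (SE 0.25, adjusted p = 0.48). Limma called 0 rows, with 8.88 percent of rows and these 4 genes at an unadjusted p under 0.05. The responses of the 2 lines are thus not shown to differ for any of the 8 genes.

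Slow and fast forms were set against each other within each troponin subunit. Rows of different genes are not on 1 scale, so only the change of the log2 ratio of slow over fast form between arrays is read, relative to its mean in non-induced miR-22 cells. The troponin C ratio moved furthest: TNNC1 over TNNC2 stood at -1.18 and -1.28 in induced miR-22 cells, compared with -0.04 and 0.04 in non-induced miR-22 cells, and at -0.33 in induced and -0.02 in non-induced NpBI-206AS cells. Both induced miR-22 arrays were thus below all 4 others, by a mean of 1.23 against an SD of 0.071 and 0.062 within the groups, which is a slow form 2.35-fold lower relative to the fast one.

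The troponin I ratio, TNNI1 over TNNI2, stood at -0.54 and -1.09 in induced miR-22 cells, compared with -0.27 and 0.27 in non-induced miR-22 cells, a mean difference of -0.81 with an SD of 0.38 in each group. The NpBI-206AS arrays were as low, at -1.09 in induced and -1.12 in non-induced cells. Both non-induced miR-22 arrays stood above the other 4. The troponin T ratio, TNNT1 over TNNT3, stood at -0.01 and 0.23 in induced miR-22 cells, compared with 0.06 and -0.06 in non-induced miR-22 cells. These groups overlapped, and the mean difference of 0.11 turned to -0.01 without induced replicate 2 and to -0.03 when quantile normalization was applied again. An exact two-sided permutation test over the 4 miR-22 arrays cannot go below p = 0.33, and gave 0.33, 0.33 and 0.67 for troponin C, I and T. The tropomyosin pair could not be read without TPM3. The slow form was thus lower relative to the fast form on both induced miR-22 arrays for troponins C and I, and troponin T gave no direction.

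**Figure D3:**
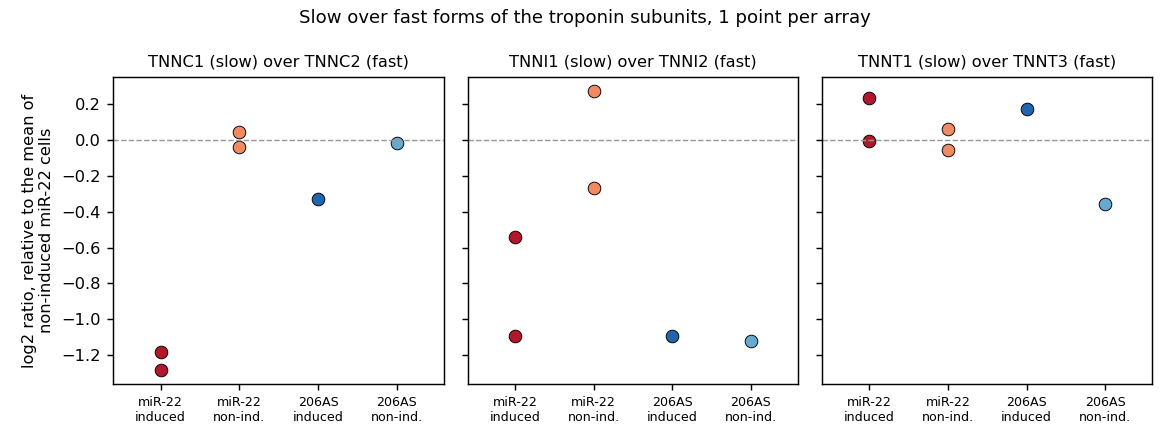
Log2 ratio of the slow over the fast gene of each troponin subunit (y axis, relative to its mean in non-induced miR-22 cells, dashed line at 0), 1 point per array, by group (x axis). The troponin C ratio is low only in induced miR-22 cells, at -1.18 and -1.28, the troponin I ratio is low in induced miR-22 cells and in both NpBI-206AS arrays, and the troponin T ratio overlaps.

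The position of the troponin genes in the genome allowed a further comparison, since troponin I and T genes lie close together in pairs. On chromosome 19, TNNT1 and TNNI3, the cardiac troponin I, are next to each other in RefSeq's order of protein-coding genes on GRCh38.p14. TNNI3 read 5.62 and 5.86 in induced and 5.62 and 5.55 in non-induced miR-22 cells, a difference of 0.16 (limma adjusted p = 0.66), beside -0.23 for TNNT1. On chromosome 11, TNNI2 and TNNT3, with LSP1 and PRR33 between them, had similar differences of -0.40 and -0.34. On chromosome 1, TNNI1 is separated from TNNT2 by LAD1, and TNNT2 was not measured. TNNC1, TNNC2, TPM1 and TPM2 lie on chromosomes 3, 20, 15 and 9, so the genes with the largest differences do not share a chromosome.

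Some other genes of the thin filament were called, all of them lower. Of 19 genes that build, cap or maintain the thin filament, 3 fell, 0 rose and the median difference was -0.02 (1.59 percent of all rows rose and 2.01 percent fell). NEB, whose giant product nebulin runs along the filament, read 7.14 and 7.95 in induced miR-22 cells, compared with 9.19 and 9.91 in non-induced miR-22 cells (log2 difference -2.0, SE 0.35, limma adjusted p = 0.048). TMOD1, a cap of the pointed end, fell by 1.04 (adjusted p = 0.038). ACTC1, the cardiac actin also made in embryonic skeletal muscle, read 11.17 and 11.16 in induced miR-22 cells, compared with 12.13 and 12.20 in non-induced miR-22 cells (log2 difference -1.0, SE 0.15, adjusted p = 0.033). Induced NpBI-206AS cells stood at 9.48 for NEB and at 11.19 for ACTC1, so that induced miR-22 cells differed from them by -1.93 in NEB (adjusted p = 0.13) and by -0.03 in ACTC1. TPM4, a tropomyosin of non-muscle cells, differed by 0.06 (adjusted p = 0.86) on induction of miR-22, and ACTA1, the adult skeletal actin, by 0.18 (adjusted p = 0.62).

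Fibre-type genes outside the troponins and tropomyosins held calls in both the slow and the fast list. Of 12 slow-fibre genes, 1 fell and 0 rose, with a median difference of -0.11, where 2.01 percent of all rows fell and 3.6 percent were called either way. This was CASQ2, the slow and cardiac calsequestrin that stores calcium, at 4.41 and 4.38 in induced miR-22 cells, compared with 6.36 and 5.67 in non-induced miR-22 cells (log2 difference -1.62, SE 0.25, limma adjusted p = 0.036). Of 12 fast-fibre genes, 3 fell and 0 rose, with a median of -0.51. MYL11, the fast regulatory light chain, fell by 1.53 (adjusted p = 0.040). ATP2A1, the fast calcium pump, fell by 1.52 (adjusted p = 0.032). MYL1, a fast essential light chain, fell by 1.21 (adjusted p = 0.026). Against induced NpBI-206AS cells, induced miR-22 cells differed by -0.14 in CASQ2, 0.18 in MYL11, -1.35 in ATP2A1 and 0.3 in MYL1. Without doxycycline, the miR-22 line exceeded NpBI-206AS cells by 1.39 in CASQ2, 1.48 in MYL11, 0.57 in ATP2A1 and 1.54 in MYL1. None of these differences between the lines was called, and each NpBI-206AS group was 1 array. In these lists 1 slow-fibre and 2 fast-fibre genes lay under the lower quartile on all 6 arrays, where a fall could hardly be seen. Among 21 measured regulators of muscle and fibre type, 1 fell and 0 rose, with a median of -0.01, a share near the 3.6 percent of all rows. The called gene was TEAD4, a TEAD factor of myoblasts, which fell by 0.98 (adjusted p = 0.049). MYOG, the regulator of muscle differentiation, differed by -0.69 (adjusted p = 0.16) and MYOD1 by -0.53 (adjusted p = 0.24).

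**Figure D4:**
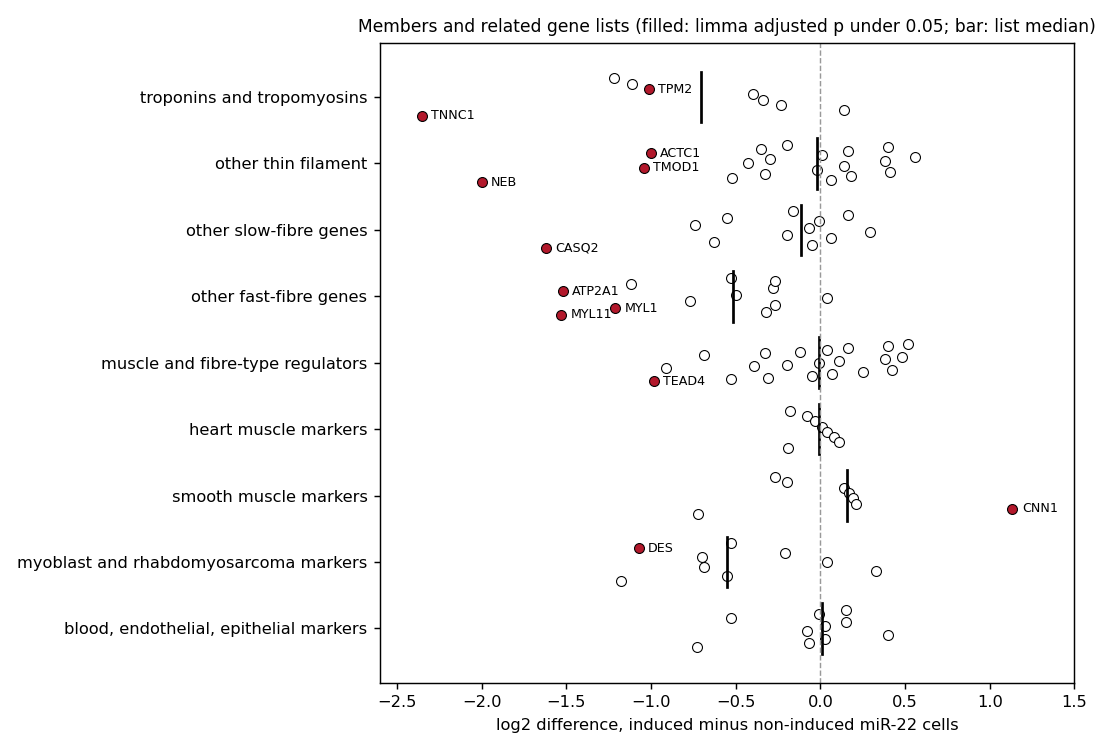
Log2 difference, induced minus non-induced miR-22 cells (x axis), of each gene in the troponin and tropomyosin set and in 8 related lists (y axis), with filled points where limma's adjusted p was under 0.05 and a bar at each list's median. The troponins and tropomyosins have a median of -0.70, the myoblast and rhabdomyosarcoma markers of -0.55 and the other fast-fibre genes of -0.51, while the medians of the other lists lie between -0.11 and 0.15.

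TNNC1 is also a heart gene and TPM2 and TPM1 are also smooth muscle genes, so markers of those tissues were read. Of 8 measured heart markers, 0 were called (3.6 percent of all rows were), the differences ran from -0.19 to 0.11, and 7 lay under the array median on all 6 arrays. Of 8 smooth muscle markers, 1 rose, CNN1 (calponin), at 6.76 and 6.55 in induced miR-22 cells, compared with 5.65 and 5.4 in non-induced miR-22 cells (log2 difference 1.13, SE 0.17, limma adjusted p = 0.036), where 1.59 percent of all rows rose. SMTN, MYLK and LMOD1 of the same list had differences of -0.72, -0.27 and -0.20 (adjusted p = 0.075, 0.43 and 0.56). MYH11, ACTG2, ACTA2 and TAGLN went the other way, by 0.21, 0.19, 0.17 and 0.14, without being called. The list's median was 0.15. The mean level of the smooth muscle list ran from 5.29 to 5.39 in induced and from 5.10 to 5.42 in non-induced miR-22 cells. Markers of blood, endothelial and epithelial cells gave 0 calls of 10, and 7 of them lay under the array median on all 6 arrays. The keratin genes KRT18 and KRT8 lay above it on all 6. KRT18 read 10.56 and 10.48 in induced and 10.32 and 9.93 in non-induced miR-22 cells, and KRT8 6.46 and 6.63, and 6.34 and 6.46. The mean level of these 10 markers ran from 5.01 to 5.11 in induced and from 5.09 to 5.16 in non-induced miR-22 cells. Of 9 markers of myoblasts and rhabdomyosarcoma, which share MYOD1, MYOG and MYF5 with the regulators, 1 fell, the intermediate filament gene DES, by 1.07 (adjusted p = 0.038), and the list's median was -0.55. The mean level of that list ran from 7.79 to 8.04 in induced and from 8.33 to 8.52 in non-induced miR-22 cells, and its part in the troponin and tropomyosin differences was not tested. In these bulk cultures, fewer cells expressing a gene and less of its RNA per cell cannot be told apart.

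The genes whose pattern over the 6 arrays was most like that of the 3 most variable members were found among 18409 other genes, by the root mean square difference of log2 values after centring each gene on its own mean. For TNNC1 these were MYBPH, a myosin-binding protein gene, CAVIN4, a muscle cavin, and SHD, an adaptor gene, at 0.30, 0.30 and 0.32. For TNNI1 they were the fast light chains MYL1 and MYL11 and the M-band gene MYOM2, at 0.17, 0.19 and 0.19. For TNNC2 they were ACTC1, STYXL2 and the Z-disc gene ACTN2, at 0.15, 0.15 and 0.17. The levels of ACTC1, for example, were 11.17 and 11.16 in induced miR-22 cells, 12.13 and 12.20 in non-induced miR-22 cells, 11.19 in induced NpBI-206AS cells and 11.30 in non-induced NpBI-206AS cells, with the non-induced miR-22 arrays apart from the other 4 as for TNNC2. For TNNC1 the NpBI-206AS arrays lay between: CAVIN4 read 5.97 and 6.36 in induced miR-22 cells, 8.27 and 8.45 in non-induced miR-22 cells, 7.49 in induced NpBI-206AS cells and 7.72 in non-induced NpBI-206AS cells.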

How the data were processed

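Expression was measured on 6 arrays, 1 per RD18 culture. The deposited values are log2 expression. The submitters' processing notes name RMA and Partek; no version is given in the sources used here. RMA corrects background, makes the arrays' distributions alike and combines each transcript's probes, which hides any change common to all transcripts. The number of arrays limits the precision.

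Rows were named through the platform's annotation where it gives 1 symbol (19460 of 33297 rows; 1754 have several and 12083 none), updated by gene ID to RefSeq's GRCh38.p14 table (19429 matched); a gene's row is that with the highest mean over the 6 arrays. Python 3.11.15 and R 4.3.3 were used. Tests were limma 3.58.1 on the deposited log2 values, 1 model with a mean per group over 6 arrays (2 residual and 3.62 prior degrees of freedom), two-sided, adjusted over the 33297 rows by Benjamini-Hochberg and called at 0.05. Replicates carry only a number, so no replicate block was used. A TPM3 to TPM1 ratio was planned and could not be made. A group mean under the lower quartile was to be called not shown above background.

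From each other list, called genes were named, up to 4 each way, and otherwise the 2 with the largest difference. MYOD1, MYOG, MYF5, TNNI3, TPM4, ACTA1, SMTN, MYLK and LMOD1 were named outside that rule, after their values were seen. So were MYH11, ACTG2, ACTA2, TAGLN, KRT8, KRT18, SOX6, MEF2C, MEF2A, MEF2D, TBX15 and HDAC4. MYH6 and NKX2-5 (heart list) differed by -0.18 and -0.19, and CD68 and PECAM1 (blood and endothelial) by -0.73 and -0.53, none called. MYLPF of the fast list is MYL11 in the gene table. The members and lists were chosen with earlier results of these data known.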

Additional observations from a re-analysis of the deposited data

How the results depend on the processing

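TNNC1 and TPM2 kept their direction under every alternative run and their calls under all that kept both replicates of each group, with TNNC1 from -2.35 to -2.28 and TPM2 from -1.08 to -0.94; TNNC1 drops out when the dimmest 50 percent of rows are removed, since it is among them. With 1 miR-22 array left out, the counts of called rows and of called members in induced against non-induced miR-22 cells ran from 0 to 0, and likewise the rows called in induced miR-22 against induced NpBI-206AS cells; TNNC1 ran from -2.59 to -2.10 and TPM2 from -1.02 to -0.99, with adjusted p from 0.11 to 0.40 for both. Those fits have 1 residual degree of freedom.

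In induced against non-induced miR-22 cells, the count of 1200 called rows became 2611 without the dimmest 50 percent of rows. The 2 called members became 4 with eBayes trend and robust, with TNNI1 (adjusted p = 0.043) and TNNC2 (0.05) added. TNNI1 was also called when quantile normalization was applied again (0.045), and TNNI1 and TNNC2 without the dimmest rows (0.015 and 0.017). The split of 531 higher and 669 lower rows became 718 and 574 with arrays centred on their medians. In induced miR-22 against induced NpBI-206AS cells, 130 called rows became 747 without the dimmest rows, 75 with the rows of a gene averaged and 227 with eBayes trend and robust, and no member was called in any of these. The cause of these changes was not tested. The replicate block, in which replicate number is a term over the 4 miR-22 arrays, gave 2955 called rows and 4 called members; the deviations of equally numbered arrays correlated at r = 0.196 over all rows, and with 2 pairs the arrays share only a number. The array code prefix as a random block could not be estimated.

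Some uncalled differences near 0 changed sign. For non-induced miR-22 against non-induced NpBI-206AS cells, TNNT3 became -0.03 with arrays centred and ran from -0.04 to 0.06 with 1 array left out. In the interaction TNNT3 became 0.02 with arrays centred and ran from -0.20 to 0.04. Against induced NpBI-206AS cells, with 1 array left out, TNNI1 ran from -0.19 to 0.28, TNNC2 from -0.32 to 0.03 and TNNT3 from -0.20 to 0.05. The TNNT1 to TNNT3 ratio became -0.03 with quantile normalization again and ran from -0.01 to 0.23 with 1 array left out. The troponin C ratio ran from -1.28 to -1.18 and the troponin I ratio from -1.09 to -0.54.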

Other observations

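A pair of regulators, chosen after their values were seen, read higher on every miR-22 array than on both NpBI-206AS arrays. Among the muscle and fibre-type regulators, MYOG, MEF2A, MEF2D and TBX15 did so too, and HDAC4 was lower on every miR-22 array. Over all rows, 33.4 percent had both induced miR-22 arrays above both NpBI-206AS arrays, and 22.1 percent had both non-induced ones above. For the lower side these shares were 27.2 and 16.1 percent. The share of rows with every miR-22 array on the same side was not counted, so these regulators have no matching share. Each NpBI-206AS group was 1 array, and 0 rows were called between the non-induced cells of the 2 lines. SOX6, known in mouse and zebrafish as a repressor of slow-fibre genes, read 6.63 and 6.58 in induced miR-22 cells, 6.23 and 6.04 in non-induced miR-22 cells, 5.17 in induced NpBI-206AS cells and 5.05 in non-induced NpBI-206AS cells. Its difference was 1.44 for induced miR-22 against induced NpBI-206AS cells (SE 0.19, limma adjusted p = 0.058) and 1.08 for the non-induced cells of the 2 lines (adjusted p = 0.93). MEF2C, a transcription factor of muscle differentiation, read 8.56 and 8.90 in induced miR-22 cells, 8.48 and 8.47 in non-induced miR-22 cells, 7.35 in induced NpBI-206AS cells and 7.29 in non-induced NpBI-206AS cells. On induction of miR-22, SOX6 differed by 0.48 (adjusted p = 0.16) and MEF2C by 0.25 (adjusted p = 0.49). Neither gene followed the TNNI1 and TNNC2 pattern, in which only non-induced miR-22 cells stood apart. Any relation of SOX6 or MEF2C to the troponin genes was not tested.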
